A study of Mus musculus with 12 samples.

Results

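Messenger RNA of 36 cell cycle genes was compared between chronic aneurysms of the proximal thoracic aorta (cPTAA) and sham-operated aortas of mice. The genes were chosen by name: 13 act mainly in DNA replication and its preparation (S phase here) and 23 act mainly in G2 and mitosis (G2/M here). All 36 were found among the 30130 genes listed. The 7 cPTAA libraries (numbered 2, 3, 4, 6, 7, 9 and 12) came from aortas treated with elastase, a protease that cuts elastic fibres, applied to the outside of the vessel, in mice that also received BAPN, an inhibitor of the lysyl oxidases that crosslink elastin and collagen. The 5 sham libraries (1, 5, 8, 10 and 11) came from mice with sham surgery and normal water. All mice were male and of 1 strain, written C56BL/6J in the labels, with no genetic change named, and neither age nor time after surgery was given. Elastase, BAPN and the injury of applying them can be compared with sham only as 1 condition. Because separate animals are not named, the tests speak only of the variation among these 12 samples, which could be technical.

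Dividing cells pass through an ordered programme. Before and during S phase, E2F factors released from the retinoblastoma protein drive genes for loading the MCM helicase, copying DNA and making nucleotides. In G2 and mitosis, B-Myb and FoxM1, working on promoters with a CHR element, drive cyclin B, CDK1, the spindle motors and the checkpoint kinases. In the adult aortic wall most cells are quiescent, and the transcripts of the second group are scarce there.

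Depth was between 15238188 and 17493428 reads per library in cPTAA and between 14078885 and 16740960 in sham. Smooth muscle markers were among the abundant transcripts of every library, with summed levels from 65062 to 256186 in cPTAA and from 204063 to 281507 in sham. Other tissues were present too: cardiomyocyte markers reached 117957 in cPTAA 9, against at most 6874 in any sham library, and immature thymocyte markers reached 1361 in cPTAA 3, against at most 264 in any sham library. Levels are normalised read counts, that is, reads divided by 1 factor per library, and fold changes are log2, cPTAA minus sham, ± SE, on log2(value + 1), with adjusted p from limma over 21415 genes. In whole tissue, more cells that carry a transcript and more of it per cell cannot be told apart.

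Promoters of both groups were searched for sequences by which such genes are known to be controlled. Not all held a match, and the 4 shown were picked because they hold them before the start site. RefSeq promoter windows (build GRCm38.p6, 250 bases before to 50 after each start, 300 bases in all) were found for 29 of the 36 genes in 30 windows, Mcm7 having a pair of them. Foxm1, Aurkb, Mcm4, Ccna2, Ccne2, Tpx2 and Kif20a had no entry. Each sequence below is the 250 bases before the start, on the gene's strand. Capitals mark E2F matches (TTTCCCGC, TTTGGCGC, TTTGCCGC or TTTCGCGC), CHR matches (TTTGAA or TTCGAA) and CCAAT boxes (CCAAT), each searched on both strands.
Mcm5, helicase subunit, chr8:75109259-75109508, plus strand: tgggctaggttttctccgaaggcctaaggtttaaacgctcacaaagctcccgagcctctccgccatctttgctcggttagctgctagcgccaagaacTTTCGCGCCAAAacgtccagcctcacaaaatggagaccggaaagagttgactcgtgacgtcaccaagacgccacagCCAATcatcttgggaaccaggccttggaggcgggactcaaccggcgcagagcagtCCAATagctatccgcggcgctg
Mcm6, helicase subunit, chr1:128359706-128359955, minus strand: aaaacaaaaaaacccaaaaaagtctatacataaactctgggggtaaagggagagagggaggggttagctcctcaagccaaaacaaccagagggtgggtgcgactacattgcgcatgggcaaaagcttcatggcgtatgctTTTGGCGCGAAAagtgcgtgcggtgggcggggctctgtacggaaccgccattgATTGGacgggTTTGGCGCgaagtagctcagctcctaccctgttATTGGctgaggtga
Cdk1, mitotic kinase, chr10:69352913-69353162, minus strand: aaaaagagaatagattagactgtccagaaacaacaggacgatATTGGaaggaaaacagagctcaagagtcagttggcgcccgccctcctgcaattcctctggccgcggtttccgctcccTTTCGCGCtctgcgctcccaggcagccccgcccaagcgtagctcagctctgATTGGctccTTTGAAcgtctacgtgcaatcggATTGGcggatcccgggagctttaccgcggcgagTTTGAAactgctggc
Top2a, topoisomerase of mitotic chromosomes, chr11:99024190-99024439, minus strand: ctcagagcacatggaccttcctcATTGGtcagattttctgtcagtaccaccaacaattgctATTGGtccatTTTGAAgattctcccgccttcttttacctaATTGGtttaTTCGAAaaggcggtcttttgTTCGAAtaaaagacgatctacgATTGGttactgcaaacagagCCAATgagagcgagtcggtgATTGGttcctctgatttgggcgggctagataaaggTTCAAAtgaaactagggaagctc
The Mcm5 stretch holds E2F matches that begin 153 and 149 bases before the start and overlap each other, and the Mcm6 stretch holds 3, the nearest beginning 47 bases before it. In Cdk1, 1 E2F match lies farther from the start than its CHR matches, which begin 71 and 15 bases before it. Top2a has 4 CHR matches and 6 CCAAT boxes.

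Across the 300-base windows, an E2F match was in 4 of 12 windows of S-phase genes (33.3%; Mcm3, Mcm5, Mcm6 and 1 window of Mcm7) and in 1 of 18 of G2/M genes (5.56%), beside 2.26% of all 32851 promoter windows. A CHR match was in 2 of the 12 S-phase windows (16.7%), in 14 of the 18 G2/M windows (77.8%) and in 19.2% of all windows. CCAAT boxes were in 8 (66.7%), 16 (88.9%) and 37.4%. Matches of different motifs shared bases 2 times in these windows, in Cdca8 and Mcm7. No match of any motif was in the windows of E2f1, Tyms, Ccne1, Tk1, Nusap1 and Birc5. Each window stands for the start entered for it, which need not be the main start of the gene. A window without a match, as for E2f1, thus does not show that the promoter of the gene lacks one. Only the exact strings listed were searched, so sites with other letters were not counted. These matches are letters in a window and not measured binding.

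Most genes of both phases rose in the aneurysms, and the G2/M genes had the higher median change. Of the 13 S-phase genes, 10 rose and 0 fell, with a median log2 fold change of 0.78. Of the 23 G2/M genes, 22 rose and 0 fell, with a median of 2.32. Among all 21415 genes tested, 12.9% rose and 11.1% fell, and the median was -0.05. By the plain ratio of group means, the S-phase genes were between 1.28-fold and 3.71-fold higher in cPTAA (median 1.86) and the G2/M genes between 1.27-fold and 11.7-fold (median 5.41). All 36 passed the filter on low values, and each had a positive log2 fold change. Libraries of the groups did not overlap for 6 S-phase and 19 G2/M genes, where 8.02% of all tested genes were higher in cPTAA without overlap. With the level of brown adipocyte genes as a covariate, 2 genes of each phase rose, and the medians were 0.70 and 1.22. Over all 21415 tested genes, 1339 rose in that fit, against 2754 without the covariate.

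**Figure D1:**
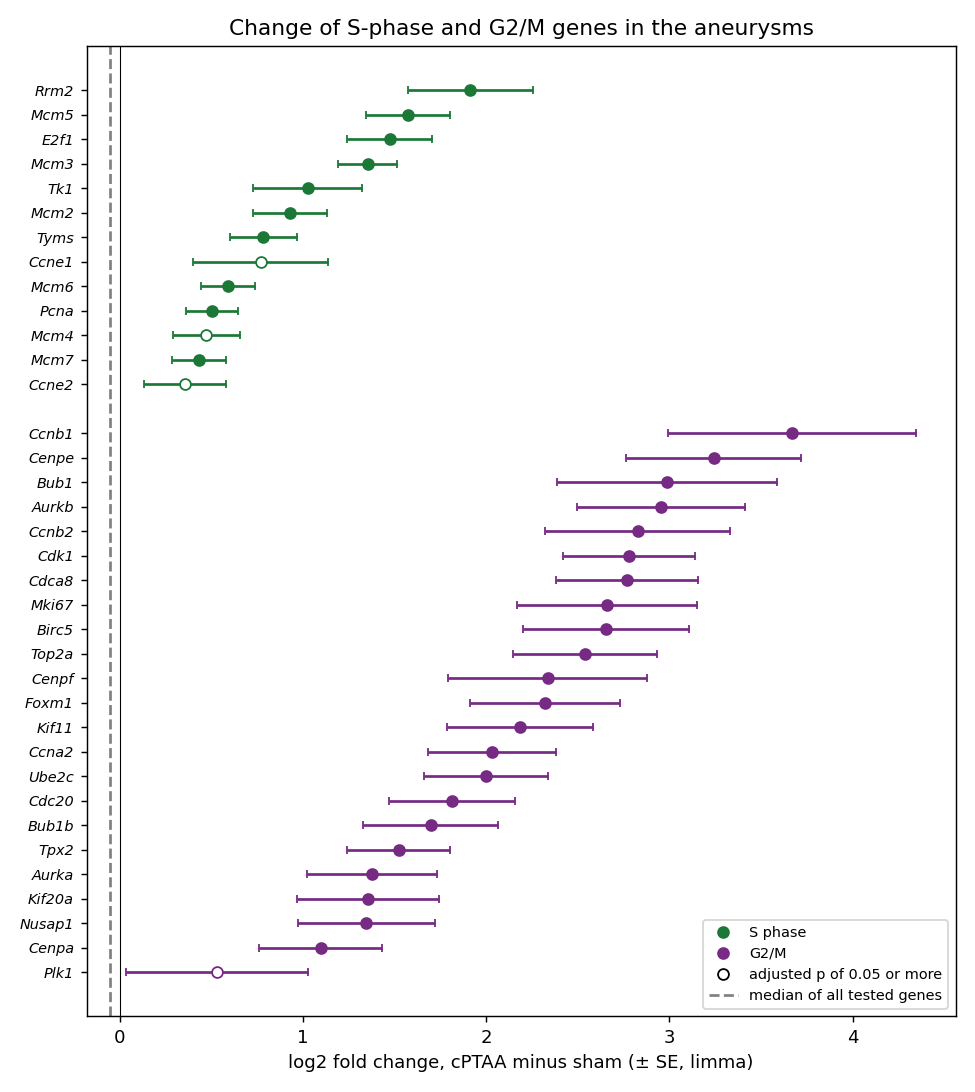
Log2 fold change (cPTAA minus sham, horizontal axis) of each gene with its SE, S-phase genes above and G2/M genes below, from 7 cPTAA and 5 sham libraries. Open circles did not pass an adjusted p of 0.05 (Ccne1, Mcm4, Ccne2 and Plk1), and the dashed line at -0.05 is the median of all tested genes.

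The MCM genes encode the 6 subunits of the ring that unwinds DNA at the replication fork, and 5 of the 6 rose, by unequal amounts. Mcm3 had a lowest, median and highest level of 309, 379 and 469 in cPTAA, against 178, 181, 138, 116 and 141 in sham 1, 5, 8, 10 and 11 (log2 fold change 1.35 ± 0.16, adjusted p = 3.49e-05). Mcm5 had 192, 302 and 344 in cPTAA, against 95.9, 116, 132, 58.6 and 73.3 in sham (1.57 ± 0.23, adjusted p = 0.00018). For both genes every cPTAA library lay above every sham library, with cPTAA 7 the lowest aneurysm and cPTAA 2 the highest. Mcm2 had 166, 252 and 312 in cPTAA, against 137, 146, 171, 89.0 and 98.9 in sham (0.93 ± 0.20, adjusted p = 0.00373), and here cPTAA 7 lay just below sham 8. Mcm6 (0.59 ± 0.15, adjusted p = 0.00909) and Mcm7 (0.43 ± 0.15, adjusted p = 0.0451) rose less, with overlap. Mcm7 did not pass when any one of cPTAA 2, 3, 4, 6, 9 and 12 or sham 8, 10 and 11 was left out (adjusted p at most 0.133). Mcm4 did not pass, at 347 ± 71.2 in cPTAA and 252 ± 61.8 in sham (0.47 ± 0.18, adjusted p = 0.0778).

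Genes of the sliding clamp and of nucleotide supply also rose. Pcna, the clamp that holds DNA polymerase and also serves repair, had a lowest, median and highest level of 604, 639.6 and 967 in cPTAA, against 528, 482, 557, 469 and 452 in sham 1, 5, 8, 10 and 11 (log2 fold change 0.50 ± 0.14, adjusted p = 0.0187). The groups did not overlap, though the gap between cPTAA 7 and sham 8 was small beside either range, and Pcna did not pass without sham 10 (adjusted p = 0.0510) or sham 11 (adjusted p = 0.0530). Rrm2, the small subunit of ribonucleotide reductase, had 57.8, 77.3 and 157 in cPTAA, against 32.7, 34.1, 23.4, 8.68 and 18.6 in sham (1.91 ± 0.34, adjusted p = 0.000919). Its log2 fold change was the highest of the S-phase genes, and cPTAA 12 held its highest level. Tyms, thymidylate synthase, averaged 139 ± 23.4 in cPTAA and 80.3 ± 12.5 in sham (0.78 ± 0.18, adjusted p = 0.00558). Tk1, the thymidine kinase of cycling cells, averaged 144 ± 62.1 in cPTAA and 69.3 ± 26.6 in sham (1.02 ± 0.30, adjusted p = 0.0209), and did not pass without sham 1 or without sham 5 (adjusted p = 0.0620 and 0.0521).

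The regulators of S-phase entry divided. E2f1, an activating E2F factor, had a lowest, median and highest level of 95.1, 157 and 234 in cPTAA, against 58.0, 51.6, 47.9, 41.2 and 61.7 in sham 1, 5, 8, 10 and 11 (log2 fold change 1.47 ± 0.23, adjusted p = 0.000351). No sham library reached the lowest cPTAA library. Ccne1 and Ccne2 encode the E cyclins, which activate CDK2 at the start of S phase, and neither passed. Ccne1 had 16.4, 51.8 and 66.7 in cPTAA, against 20.0, 23.4, 14.3, 23.9 and 32.6 in sham (0.77 ± 0.37, adjusted p = 0.150). Ccne2 had 45.4, 55.6 and 77.5 in cPTAA, against 34.8, 37.99, 55.0, 54.3 and 50.05 in sham (0.35 ± 0.22, adjusted p = 0.279). Both E cyclins overlapped between the groups, with the lowest Ccne1 of the aneurysms in cPTAA 7.

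Kinase and cyclins of mitotic entry rose several-fold. Cdk1, the kinase that starts mitosis, had a lowest, median and highest level of 56.0, 101 and 200.3 in cPTAA, against 21.1, 12.7, 23.4, 7.60 and 9.31 in sham 1, 5, 8, 10 and 11 (log2 fold change 2.78 ± 0.36, adjusted p = 7.31e-05). Ccnb1, its B-type cyclin partner, had 35.3, 75.1 and 198 in cPTAA, against 7.38, 15.6, 14.3, 1.09 and 0 in sham (3.67 ± 0.68, adjusted p = 0.00115). That was the highest log2 fold change of the 36, and it rests on few sham reads, with 0 in sham 11. Foxm1, a transcription factor of G2 genes, had 33.3, 44.9 and 149 in cPTAA, against 12.7, 5.84, 22.4, 6.51 and 12.8 in sham (2.32 ± 0.41, adjusted p = 0.000819). For all 3 genes the groups did not overlap, and cPTAA 12 was highest. Ccna2, cyclin A, which acts in both S phase and G2, and Ccnb2 rose as well (2.03 ± 0.35 and 2.83 ± 0.50, adjusted p = 0.000669 and 0.000866).

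Mki67 and Top2a, both widely used as markers of cycling cells, spanned a wide range of levels among the aneurysms. Mki67, the Ki-67 protein that coats mitotic chromosomes, had a lowest, median and highest level of 108, 322 and 1108 in cPTAA, against 81.2, 71.1, 52.0, 31.5 and 25.6 in sham 1, 5, 8, 10 and 11 (log2 fold change 2.66 ± 0.49, adjusted p = 0.00114). Top2a, which untangles sister DNA, had 169.6, 281 and 908 in cPTAA, against 73.8, 56.5, 78.4, 36.9 and 30.3 in sham (2.54 ± 0.39, adjusted p = 0.000283). In both, cPTAA 12 was the highest and cPTAA 6 the lowest aneurysm, and even the lowest exceeded every sham library.

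Genes of the kinetochore, the chromosomal passenger complex and the checkpoint had positive fold changes, and all of those below passed except the mitotic kinase gene Plk1. Cdca8 (borealin, of the passenger complex) had a lowest, median and highest level of 37.7, 66.5 and 127 in cPTAA, against 10.5, 5.84, 15.3, 3.26 and 13.97 in sham 1, 5, 8, 10 and 11 (log2 fold change 2.77 ± 0.39, adjusted p = 0.000133). Cenpe, a kinetochore motor, had 34.3, 88.1 and 227 in cPTAA, against 6.33, 16.6, 4.07, 5.43 and 8.15 in sham (3.24 ± 0.48, adjusted p = 0.000198). Neither gene had an overlap between the groups. Aurkb and Birc5, the kinase and the survivin subunit of the passenger complex, rose by 2.95 ± 0.46 and 2.65 ± 0.46 (adjusted p = 0.000294 and 0.000659). The checkpoint kinase genes Bub1 and Bub1b rose by 2.99 ± 0.60 and 1.70 ± 0.37 (adjusted p = 0.00212 and 0.00370), and Cenpf, a large kinetochore protein, by 2.34 ± 0.54 (adjusted p = 0.00583). Cenpa, the histone H3 variant of centromeres, had 92.7, 122 and 338 in cPTAA, against 88.6, 53.6, 62.1, 115 and 52.4 in sham (1.10 ± 0.34, adjusted p = 0.0287). Its highest level was in cPTAA 9, which made it the G2/M gene whose peak was not in cPTAA 12, and it did not pass without cPTAA 4 or without sham 5, 8 or 11 (adjusted p at most 0.0783). Plk1, the polo-like kinase, was the G2/M gene that did not pass, with 20.3, 35.5 and 95.1 in cPTAA, against 20.0, 30.2, 87.6, 8.68 and 26.8 in sham (0.53 ± 0.50, adjusted p = 0.483). Sham 8 was close to the highest aneurysm for Plk1.

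Spindle motors and the machinery of mitotic exit made up the rest. Kif11, the motor that separates spindle poles, rose by 2.18 ± 0.40 (adjusted p = 0.00109), and Kif20a, a motor of cytokinesis, by 1.35 ± 0.39 (adjusted p = 0.0194). The spindle assembly genes Tpx2 and Nusap1 and the kinase Aurka, which Tpx2 activates, rose by 1.52 ± 0.28, 1.35 ± 0.37 and 1.38 ± 0.36 (adjusted p = 0.00112, 0.0163 and 0.0113). Nusap1 did not pass without sham 11 (adjusted p = 0.0503). Cdc20 and Ube2c, an activator and the ubiquitin-conjugating enzyme of the anaphase-promoting complex, averaged 104 ± 61.3 and 67.6 ± 33.4 in cPTAA, against 27.2 ± 10.8 and 14.8 ± 3.04 in sham (1.81 ± 0.34 and 1.998 ± 0.34, adjusted p = 0.00141 and 0.000614).

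**Figure D2:**
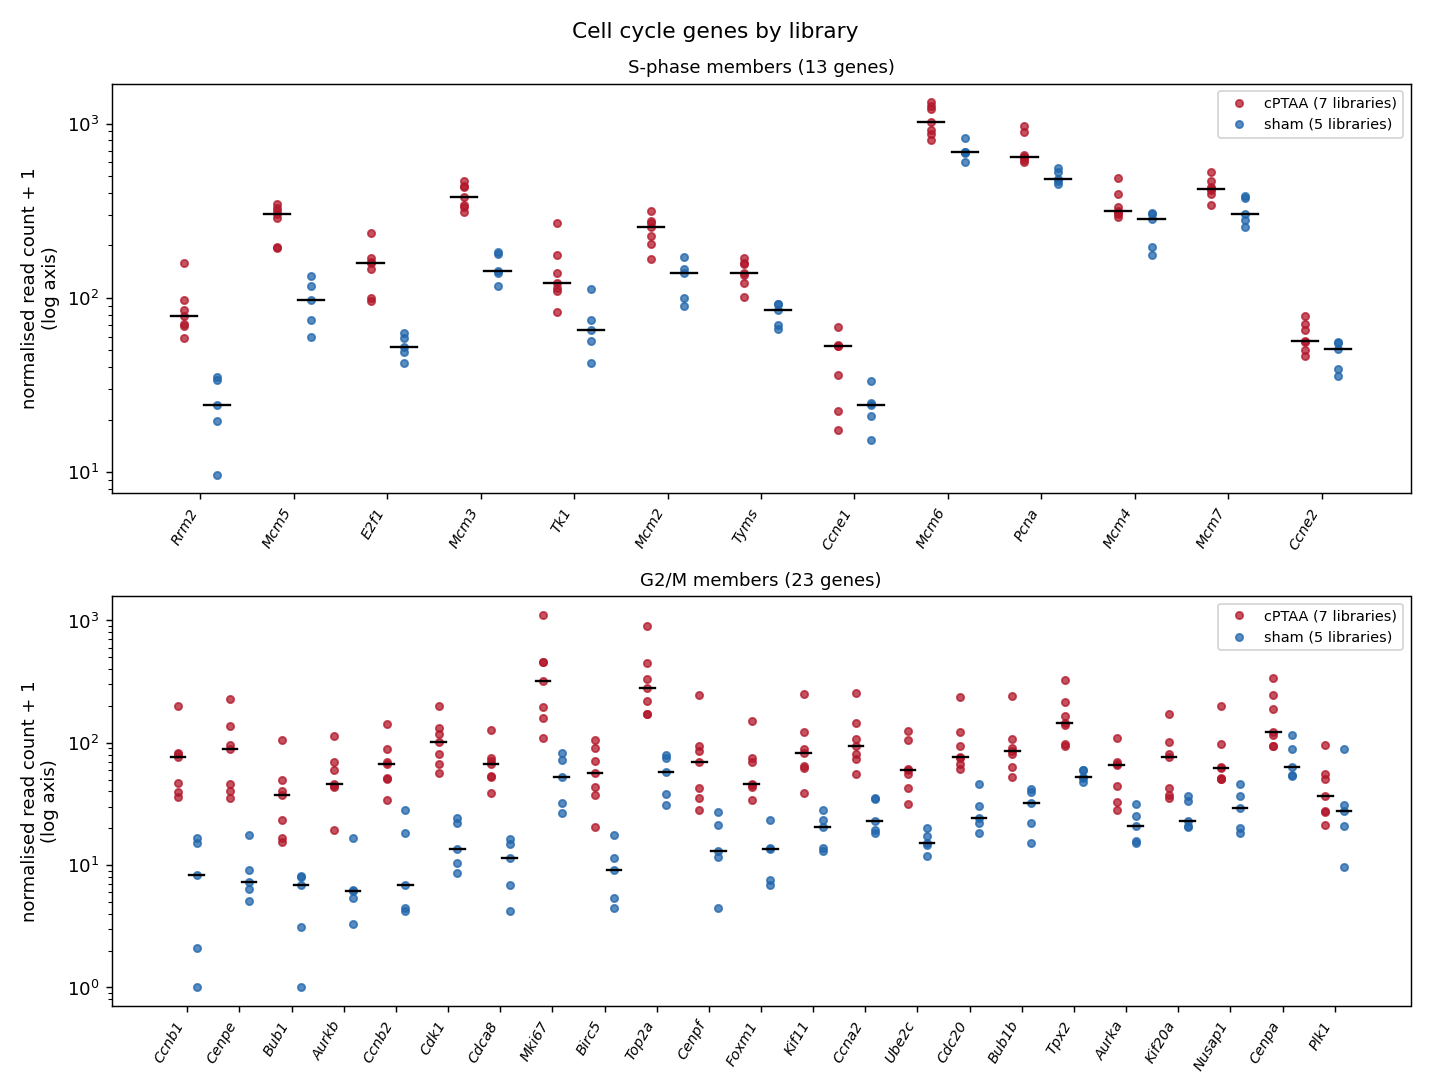
Normalised read count plus 1 (log axis) of each gene in 7 cPTAA and 5 sham libraries, with the group median as a bar; genes are ordered by fold change within each phase. The G2/M genes were lower in sham and more spread among cPTAA libraries than most S-phase genes, with Mki67 reaching 1108 in 1 aneurysm.

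The phases differed in level as well as in change. Per kilobase of exon, S-phase genes had a median level of 81.0 in cPTAA and 38.1 in sham, and G2/M genes had 27.8 in cPTAA and 5.69 in sham. On that scale Pcna stood highest in both groups, at 472 in cPTAA and 328 in sham, and Cenpa was the highest G2/M gene, at 104 in cPTAA and 45.3 in sham. Spread differed too: the SD of log2 levels had a median over G2/M genes of 0.73 in cPTAA and 0.66 in sham. Over S-phase genes it was 0.28 in cPTAA and 0.30 in sham. Low counts vary more on the log2 scale, and how much of the difference in spread came from them was not tested.

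Whether a G2/M gene changed more than an S-phase gene was tested gene by gene, as the log2 ratio of the pair within each library, by a two-sided exact permutation test over libraries. Each of the 23 G2/M genes was paired with each of the 13 S-phase genes, which gave 299 pairs that share genes, and p was adjusted over them. The test was added after the fold changes were known and was not run on pairs of other genes. No share over all genes can thus be set beside its counts. The 23.9% of all tested genes that changed in either direction counts limma calls on single genes, which is an unlike measure. The ratio was higher in cPTAA in 272 pairs, of which 188 passed, and lower in 27, of which 2 passed. The median difference was 1.302 on the log2 scale, from -1.38 to 3.31. All 27 lower ratios had Plk1 (9 pairs), Cenpa, Nusap1, Aurka, Kif20a, Tpx2, Bub1b or Cdc20 on top, and 8 of them were over Rrm2 and 6 over Mcm5. Those that passed were Plk1 over Rrm2, which averaged -1.08 ± 0.40 in cPTAA and 0.30 ± 0.97 in sham (exact p = 0.00126, the smallest this design allows, adjusted p = 0.00787), and Plk1 over Mcm5, at -2.79 ± 0.59 in cPTAA and -1.75 ± 0.78 in sham (exact p = 0.0253, adjusted p = 0.0413). The order of the phases thus did not hold for every gene. A smaller panel of 5 G2/M genes (Mki67, Top2a, Cdk1, Ccnb1 and Foxm1) and 5 S-phase genes (Pcna, Mcm2, Ccne1, Ccne2 and E2f1) holds none of the lower ratios and is given for its values only. In it Mki67 over Mcm2 averaged 0.36 ± 1.07 in cPTAA and -1.37 ± 0.48 in sham. Cdk1 over Mcm2 averaged -1.26 ± 0.51 in cPTAA and -3.11 ± 0.36 in sham, without overlap. With 1 library left out, between 152 and 188 of the 299 pairs passed with a higher ratio in cPTAA.

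Among the aneurysms themselves, S-phase sums were more alike than G2/M sums. Abundant genes weigh most in a sum, and Mcm6 and Pcna averaged 1058 and 716 in cPTAA. The 13 S-phase genes summed to between 3355 and 4508 in cPTAA, with a median of 4210.3, and to 2727, 2476, 2563, 2156 and 2237 in sham 1, 5, 8, 10 and 11. The 23 G2/M genes summed to 2077, 2368, 2977, 1613, 1279, 1859 and 5871 in cPTAA 2, 3, 4, 6, 7, 9 and 12, against 644, 580.5, 699, 461 and 409 in sham. As a percent of the S-phase sum, the G2/M sum was 46.6, 67.5, 70.7, 35.8, 38.1, 44.2 and 136% in those aneurysms, against 23.6, 23.4, 27.3, 21.4 and 18.3% in sham. The aneurysm with the lowest ratio, cPTAA 6, had the highest S-phase sum. By mean log2 level, which weighs each gene alike, cPTAA 12 was the highest and cPTAA 7 the lowest aneurysm in both phases. The S-phase means were 8.02 and 7.31 in those libraries and 7.77 in cPTAA 6. The G2/M means of cPTAA 12 and 7 were 7.66 and 5.50. The libraries were also unequal gene by gene: 22 of 23 G2/M genes and 6 of 13 S-phase genes had their highest level in cPTAA 12, and 14 G2/M and 9 S-phase genes had their lowest aneurysm level in cPTAA 7. Without cPTAA 12, 9 S-phase and 22 G2/M genes rose, with medians of 0.76 and 2.02.

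**Figure D3:**
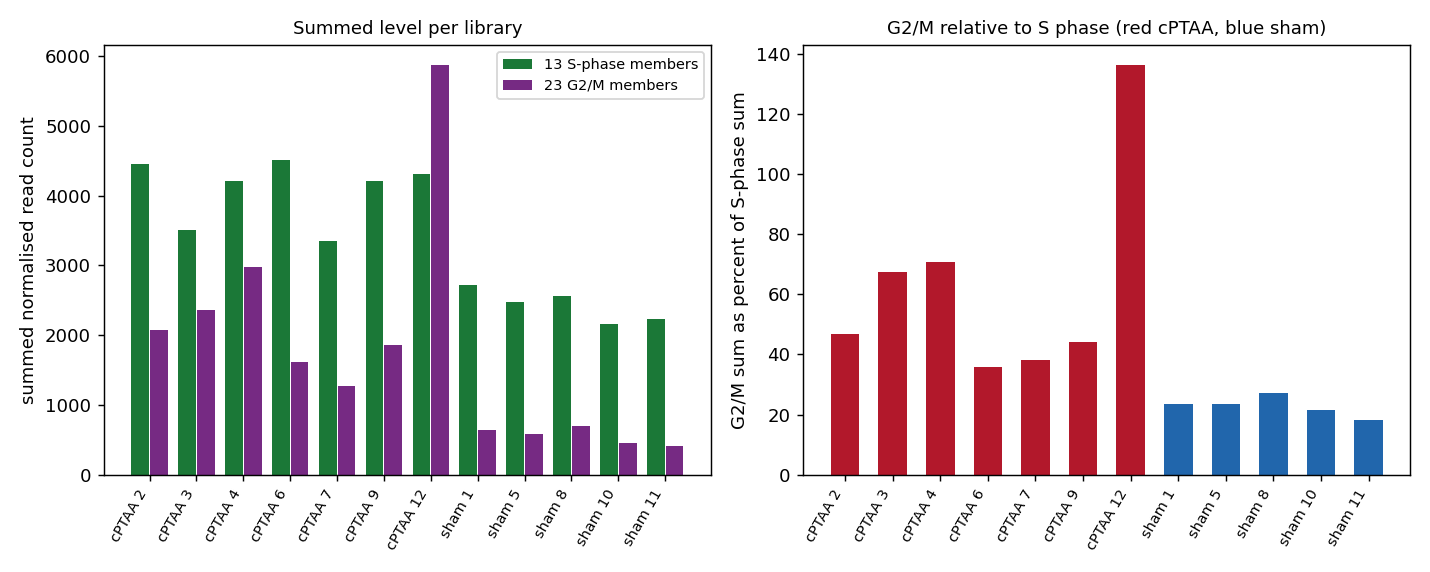
Left, summed normalised read counts of the 13 S-phase and 23 G2/M genes in each library; right, the G2/M sum as a percent of the S-phase sum, with 7 cPTAA libraries left of 5 sham libraries. In cPTAA 12 the G2/M sum reached 136% of the S-phase sum, the other aneurysms lay between 35.8 and 70.7%, and sham lay between 18.3 and 27.3%.

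Other genes of the same processes were counted from lists chosen for their roles. Over all tested genes, the shares to set beside these counts were 12.9% that rose and 11.1% that fell. Of 28 further replication genes, 13 rose and 0 fell (median log2 fold change 0.72). They included Lig1, the ligase that joins Okazaki fragments (1.09 ± 0.18, adjusted p = 0.000407), Cdt1, which loads the MCM ring (1.94 ± 0.34, adjusted p = 0.000788), and Uhrf1, which maintains DNA methylation (1.15 ± 0.24, adjusted p = 0.00238). Of 36 further mitosis genes, 31 rose and 0 fell (median 2.06). Those with the smallest p were Racgap1, of the central spindle (2.55 ± 0.32, adjusted p = 5.54e-05), Nuf2, of the kinetochore (2.74 ± 0.36, adjusted p = 8.03e-05), and Espl1, separase (1.83 ± 0.25, adjusted p = 9.34e-05).

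Of 17 G1 cyclins, G1 kinases, E2F and retinoblastoma family genes, 4 rose and 1 fell (median 0.28), a share near the 23.9% of all tested genes that changed in either direction. Ccnd1, cyclin D1, averaged 1329 ± 493 in cPTAA and 382 ± 219 in sham (log2 fold change 1.84 ± 0.34, adjusted p = 0.00124), and its partner Cdk4 rose by 0.62 ± 0.15 (adjusted p = 0.00761). E2f8, a repressing E2F that is itself induced in cycling cells, rose by 3.21 ± 0.48 (adjusted p = 0.000244) and Rbl1, p107, by 0.78 ± 0.26 (adjusted p = 0.0398). Rb1, the retinoblastoma gene, fell, at 482 ± 92.4 in cPTAA and 726 ± 90.6 in sham (-0.60 ± 0.15, adjusted p = 0.00950).

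The CDK inhibitors went both ways. Of 7, 3 rose and 2 fell, beside 12.9% and 11.1% of all tested genes. Cdkn2a, whose locus makes p16 and ARF, had a lowest, median and highest level of 45.9, 93.5 and 169 in cPTAA, against 13.7, 10.7, 3.06, 1.09 and 2.33 in sham 1, 5, 8, 10 and 11 (log2 fold change 4.07 ± 0.50, adjusted p = 4.53e-05). No overlap was seen, and its rise in log2 terms was above that of any of the 36 genes. As for Ccnb1, that rise rests on few sham reads, with levels of 3.06, 1.09 and 2.33 in sham 8, 10 and 11. Cdkn2b (p15) and Cdkn2d (p19) rose by 1.79 ± 0.21 and 0.51 ± 0.14 (adjusted p = 2.88e-05 and 0.0178). Cdkn2c (p18) and Cdkn1c (p57) fell, with log2 fold changes of -0.67 ± 0.16 and -1.01 ± 0.26 (adjusted p = 0.00646 and 0.0103).

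Markers of several cell types also differed between the groups, and their part in the results above was not tested. Of all tested genes, 12.9% rose and 11.1% fell. All 8 macrophage markers rose, with summed levels of 19265 to 39827 in cPTAA and 3583 to 9651 in sham. Among the aneurysms they were lowest in cPTAA 7, which was also lowest for most of the 36 genes. They were highest in cPTAA 6, at 39827, where the G2/M sum was the lowest percent of the S-phase sum, 35.8%. Nearly as high was their sum in cPTAA 12, at 38077, where that percent was the highest, 136%. B cell markers, of which 5 of 6 rose, summed to 82.0 to 3139 in cPTAA and 24.4 to 101 in sham, and were highest in cPTAA 12, as the G2/M genes were. T cell markers, of which 6 of 6 rose, summed to 347 to 972 in cPTAA, highest in cPTAA 3, and to 29.1 to 166 in sham. Plasma cell markers, of which 4 of 6 rose, summed to 5997 to 10791 in cPTAA, highest in cPTAA 12, and to 2659 to 4907 in sham. Fibroblast markers, of which 4 of 6 rose, summed to 72565 to 190523 in cPTAA, again highest in cPTAA 12, and to 33653 to 51141 in sham. Smooth muscle markers were lowest in cPTAA 12, at 65062, and 2 of 6 fell. Germinal centre B cell markers summed to 873 to 1265 in cPTAA and 797 to 1228 in sham, and of the 5 tested 2 rose and 1 fell.

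Markers of other cell types were measured as well, again beside 12.9% of all tested genes that rose and 11.1% that fell. Immature thymocyte markers, of a cell type that divides in the thymus, summed to 26.8 to 1361 in cPTAA and 5.82 to 264 in sham. Of the 5 tested, 0 passed. Among the aneurysms their sum was highest in cPTAA 3, and among the sham libraries in sham 1 and 5. The sums of cPTAA 12 and 6, 204 and 155, were above that of sham 5, 149. Without cPTAA 3 and sham 1 and 5, but with cPTAA 12 and 6 kept, 7 S-phase and 18 G2/M genes rose. In that setting 87 of the 299 pairs passed with a higher ratio in cPTAA. The genes that no longer passed were Pcna, Tyms, Tk1, Aurka, Kif20a, Cenpa and Nusap1 (adjusted p from 0.0594 to 0.187). Cardiomyocyte markers summed to 1193 to 117957 in cPTAA and 1253 to 6874 in sham, with 0 of 6 passing. Without the libraries highest in them, cPTAA 6, 7 and 9 and sham 8, 10 S-phase and 22 G2/M genes rose, and Mcm4 rose where Mcm7 did not. Erythroid markers overlapped between the groups, at 1310.2 to 15934 in cPTAA and 1856 to 6951 in sham (0 of 6 passing), and endothelial markers summed to 5694 to 11031 in cPTAA and 9272 to 14664 in sham (3 of 6 fell).

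Brown adipocyte markers moved the other way to the cell cycle genes. All 6 fell, with summed levels of 1034 to 43879 in cPTAA, lowest in cPTAA 12, and 30494 to 98825 in sham. White adipocyte markers summed to 30962 to 76376 in cPTAA and 60577 to 130358 in sham, and 4 of 6 fell. Of all tested genes, 11.1% fell. In the fit that carried the level of these 6 markers as a term, 35 of the 36 fold changes were still positive, Plk1 being the exception (-1.10, adjusted p = 0.212). Mcm3, Mcm5, Cdk1 and Cdca8 were the 4 that rose in that fit, and 28 lost their call (adjusted p from 0.0611 to 0.878). Over all tested genes, 1339 rose in that fit, against 2754 without the covariate. The covariate differed between the groups, and the median SE over all tested genes was 0.43 with it and 0.30 without it.

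**Figure D4:**
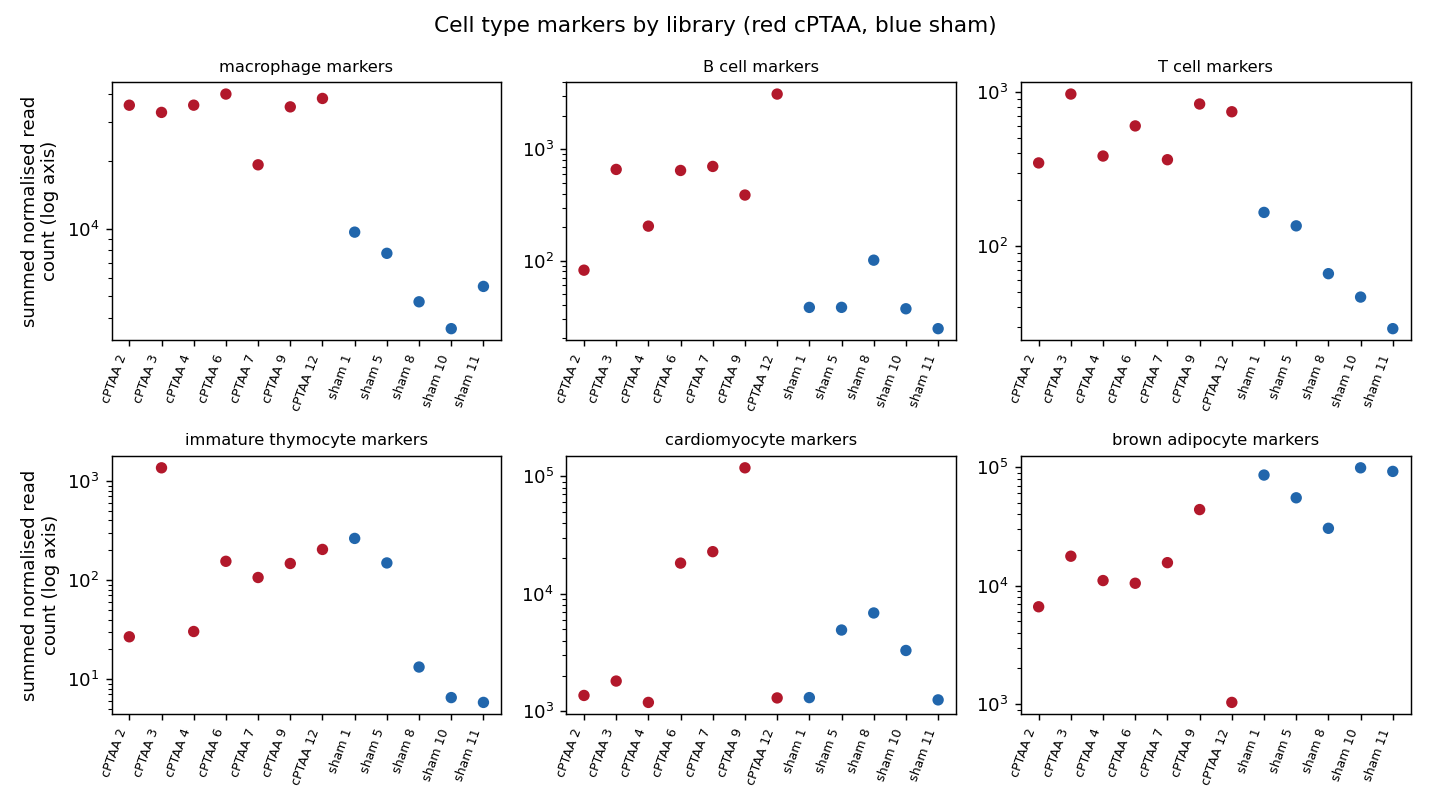
Summed normalised read counts (log axis) of 6 marker lists in each of 7 cPTAA (red) and 5 sham (blue) libraries. B cell markers peaked at 3139 in cPTAA 12, thymocyte markers at 1361 in cPTAA 3 and cardiomyocyte markers at 117957 in cPTAA 9, and brown adipocyte markers were lowest, at 1034, in cPTAA 12.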

How the data were processed

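RNA from whole aortic tissue of 7 cPTAA and 5 sham samples was captured on oligo-dT beads and sequenced, per the labels' protocols. Per the submitters' processing notes, the tools were featureCounts 1.5.0-p3, StringTie and HISAT2 2.0.5, and the build GRCm39; strand setting, filter and scaling are not given in the sources used here. Each deposited value is a signal, a normalised read count: 100% of them were found to be whole reads divided by 1 factor per library, within 0.02 reads. Recovered totals ran from 14078885 to 17493428 reads. Counts of every pair of libraries in a group differed beyond sampling noise (chi-square over degrees of freedom at least 18.8).

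Genes reaching a value of 1 in 5 libraries were kept (21415). On log2(value + 1), which understates the change of low genes, limma 3.58.1 in R 4.3.3 was run with its trend option, and Benjamini-Hochberg adjusted p under 0.05 made a call. It made 5128 calls (2754 higher, 2374 lower in cPTAA). Alternatives were edgeR 4.0.16 and DESeq2 1.42.0 on the recovered reads, TMM scaling, other filters, a pseudocount of 0.1, a brown adipocyte covariate (the mean log2 level of 6 markers) and leaving out libraries. The edgeR test called 2848 genes higher and 2121 lower. Exon lengths came from GENCODE M21, matched by symbol for all 36 genes, and promoters from RefSeq, both of build GRCm38. Of the calculations, only the limma fit without a covariate was tested on simulated data, with changes set in genes that were not low in sham. The pair test, the covariate fit and the promoter search were not tested in that way.

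The 36 genes and all lists were chosen with earlier results of these data known. Sham levels library by library, with the lowest, median and highest cPTAA level, are given for a panel of 10 genes and, in each phase, the 4 with the smallest and the 2 with the largest p; of other cell cycle lists, up to 3 genes with the smallest p in each direction are named, or all where 5 or fewer moved.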

Additional observations from a re-analysis of the deposited data

How the results depend on the processing

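The 36 genes kept their direction and their side of the threshold with a pseudocount of 0.1, a filter at 10, TMM scaling, edgeR and DESeq2, and Mcm7 alone lost its call without a filter. With 1 library left out, between 8 and 10 S-phase and between 20 and 22 G2/M genes rose and 0 fell; their medians ran from 0.74 to 0.96 and from 2.02 to 2.51, the pairs past the threshold with a higher ratio in cPTAA from 152 to 188 of 299 (19 to 25 of the 25 in the smaller panel), and over all genes 2197 to 3163 rose and 1683 to 2825 fell. The brown adipocyte covariate cut the rises to 2 S-phase and 2 G2/M genes, the G2/M median to 1.22 and the calls over all genes to 1339 rises and 887 falls, and it turned Plk1 (-1.10) and Nek2 (-0.00855); the cause was not tested. Without cPTAA 3 and sham 1 and 5, chosen after seeing the data as was leaving out cPTAA 6, 7 and 9 and sham 8, fewer samples gave 1825 rises and 1117 falls over all genes and 87 such pairs. Ccna2 counted with S phase gave 11 and 21 rises. No paired analysis was possible because the groups share no library number. Few sham reads limit the precision of some G2/M fold changes: Bub1 and Ccnb1 had 0 reads in 1 sham library each.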

Other observations

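Sham 8 stood apart for a few mitotic genes, picked out after their values were seen. Nek2, a centrosomal kinase, had a lowest, median and highest level of 20.3, 47.6 and 112 in cPTAA, against 1.05, 2.92, 182, 10.9 and 4.66 in sham 1, 5, 8, 10 and 11 (log2 fold change 2.14 ± 0.87, limma adjusted p = 0.0906). Melk, a kinase of cycling progenitor cells, had 16.4, 32.8 and 82.1 in cPTAA, against 3.16, 12.7, 78.4, 1.09 and 2.33 in sham (2.07 ± 0.74, adjusted p = 0.0563). Plk1, at 87.6 in sham 8, showed the same library on top of its group, while Mki67 and Cdk1 in sham 8, at 52.0 and 23.4, were within or near the range of the other sham libraries. Foxm1 and Cdc20 were also highest of the sham group in sham 8, at 22.4 and 44.8. Its G2/M sum, 699, and that sum as a percent of the S-phase sum, 27.3%, were the highest of the sham group too. Sham 8 also had the highest cardiomyocyte marker sum of the sham group, 6874, and the lowest brown adipocyte sum, 30494.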
